A study of Mus musculus with 17 samples.

Results

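Interferon-stimulated genes are described here in mouse dorsal root ganglia of lumbar levels L4 to L6. These ganglia hold the cell bodies of sensory neurons, with glia and resident immune cells around them. The 42 genes are a list given by symbol. Each symbol matched 1 of the 78298 gene identifiers in the count tables, and all 42 were among the 23972 genes that passed a filter on low counts. The filter keeps a gene that is present in about as many libraries as the smallest group holds, so passing it says little about any single group. Bulk RNA was sequenced in 17 libraries of 4 groups: 3 labelled CCI_KO, 5 CCI_WT, 4 Sham_KO and 5 Sham_WT. KO stands for knockout of Twik1, the potassium channel encoded by Kcnk1, and WT for wild type. CCI, chronic constriction injury, is a nerve injury model with loose ligatures around the sciatic nerve, and sham animals had the operation without the injury. All 17 libraries carry the label day 30. Which part of Kcnk1 was deleted is not stated in the labels, and neither are the strain, sex and age of the mice.

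Interferons are secreted proteins that warn cells of infection. Type I interferons bind the receptor pair Ifnar1 and Ifnar2, whose kinases lead to the formation of ISGF3, a factor that holds Stat2 and Irf9 and binds a DNA element in the promoters of interferon-stimulated genes. Type II interferon acts through Ifngr1 and Ifngr2 and it drives the guanylate-binding proteins, the immunity-related GTPases and antigen processing most strongly. Sensory neurons and the glia and macrophages around them all carry interferon receptors, and type I interferon is known to change the excitability of sensory neurons.

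Each library held 52.5 to 73.6 M (mega) gene counts, and levels are given as counts per M (CPM) of the scaled library. Kcnk1 stood at 78.3, 89.0 and 84.5 CPM in CCI_KO, 119, 108, 121, 106 and 118 CPM in CCI_WT, 77.9, 75.1, 91.8 and 114 CPM in Sham_KO and 128, 134, 94.3, 139 and 139 CPM in Sham_WT. The libraries labelled knockout were therefore only partly lower, with overlap in sham, and they are called by their label. Sensory neuron markers summed to 7617 to 10449.7 CPM in the 17 libraries. Sham_KO 1 and 2 held the injury-induced transcription factor Atf3 at 141 and 103 CPM, against 11.1 and 13.2 CPM in Sham_KO 3 and 4 and 9.42 to 16.8 CPM in Sham_WT. Whether each library is a separate animal is not stated, and the p-values reflect only the spread between libraries, which may be technical. A number carried by each deposited table is shared by all sham libraries, and each CCI group has a number of its own. Its meaning is not given, and it cannot be told apart from the injury groups.

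Nearly all of the 42 genes moved together, and by library more than by group. Their mean level on the log2 CPM scale was 3.44, 3.41 and 4.50 in CCI_KO libraries 2, 3 and 4, 3.32, 2.96, 2.94, 3.46 and 3.93 in CCI_WT libraries 1 to 5, 3.24, 3.52, 3.47 and 3.26 in Sham_KO libraries 1 to 4, and 5.45, 3., 3.06, 2.89 and 2.74 in Sham_WT libraries 1 to 5. Sham_WT 1 was the highest library, CCI_KO 4 came next and CCI_WT 5 after it. All 4 groups overlapped, but without Sham_WT 1 every CCI_KO and Sham_KO library lay above Sham_WT 2 to 5. The group means were 3.78 ± 0.62 in CCI_KO (SD, n = 3), 3.32 ± 0.41 in CCI_WT (n = 5), 3.37 ± 0.14 in Sham_KO (n = 4) and 3.43 ± 1.14 in Sham_WT (n = 5). Without library 1 the Sham_WT mean was 2.93 ± 0.14 (n = 4), and without library 4 the CCI_KO mean was 3.42 (n = 2). The median SD of a single member within its group was 0.77 on the log2 scale, against 0.34 for all tested genes. Without Sham_WT 1 these medians were 0.45 for the members and 0.33 for all tested genes.

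**Figure D1:**
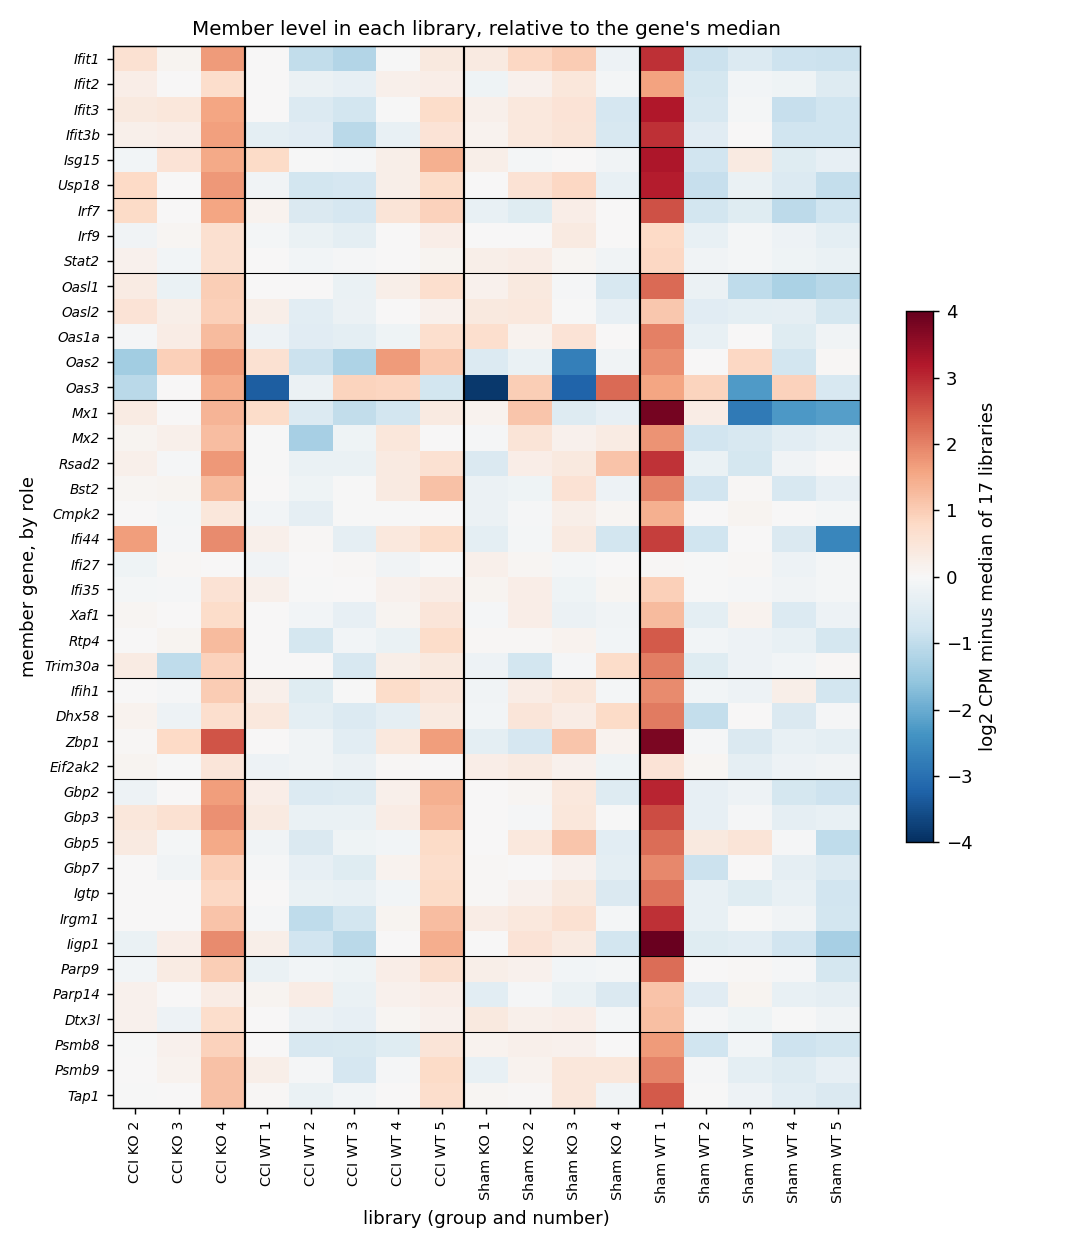
Each cell gives the log2 CPM of 1 member (rows, ordered by role) in 1 library (columns, by group and number) minus that gene's median over the 17 libraries; colours end at 4 above and 4 below the median. Sham_WT 1 is the darkest column for 40 of 42 members, and CCI_KO 4 holds the second highest level for 37.

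Sham_WT 1 held the highest level of all 17 libraries for 40 of the 42 members, whereas it was the highest library for 5.93% of all tested genes. The exceptions were Oas3, highest in Sham_KO 4, and Ifi27, highest in Sham_KO 1. Against the median of the other 16 libraries, 37 members were more than 2-fold higher in Sham_WT 1, while 6.81% of all tested genes were. Against the median of the other 4 Sham_WT libraries, all 42 members were higher and 39 were more than 2-fold higher, with a median of 5.18-fold. Of all 23972 tested genes 1974 were more than 2-fold higher by that measure, and the median gene did not differ (−0.00 on the log2 scale). By Dixon's gap over range, which asks whether 1 library lies far from the rest of its group, 28 members had a library past the 95% critical value in Sham_WT, and in every case it was library 1. Library 1 was past it on the high side for 0.759% of all tested genes, and 7.23% had any Sham_WT library past it, high or low. In CCI_WT 1 member was past that value (6.52% of all genes) and in Sham_KO 4 were (6.49% of all genes). Over genes outside the list the mean correlation of Sham_WT 1 with the other Sham_WT libraries was 0.963, within the 0.960 to 0.965 of those libraries, while over the members it was 0.835. Sham_WT 1 was picked out because its values were high, so these counts are a description. In bulk tissue more cells of a type and more RNA per cell cannot be told apart.

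The IFIT proteins, which bind viral RNA and block its translation, stood 12.7-fold (median of the 4) higher in Sham_WT 1 than in the median of the other Sham_WT libraries. Ifit3 had the highest level per exon length of the group, 23.4 CPM per kb over all libraries (ENSMUSG00000074896, chromosome 19, 34560899 to 34566443, build GRCm39). Ifit3 measured 55.7, 58.5 and 128 CPM in CCI_KO libraries 2, 3 and 4, 42.4, 28.9, 25.4, 41.8 and 70.0 CPM in CCI_WT libraries 1 to 5, 48.5, 57.0, 62.6 and 26.8 CPM in Sham_KO libraries 1 to 4, and 387, 26.9, 40.5, 22.5 and 24.2 CPM in Sham_WT libraries 1 to 5. Sham_WT 1 and CCI_KO 4 stood above all others. Among the rest, CCI_KO 2 and 3 lay above Sham_WT 2 to 5, and every other pair of groups overlapped. Ifit1, a sensor of RNA that lacks the cap methylation of host transcripts, measured 70.9, 51.1 and 153 CPM in CCI_KO, 47.0, 23.8, 20.9, 46.4 and 61.7 CPM in CCI_WT, 59.98, 83.5, 95.2 and 40.9 CPM in Sham_KO, and 360.0, 25.8, 32.4, 26.6 and 25.8 CPM in Sham_WT. Its order was the same at the top, and the lowest levels were in CCI_WT 2 and 3 and in Sham_WT 2, 4 and 5. Ifit2 was 3.83-fold and Ifit3b 11.8-fold higher in Sham_WT 1 by this measure. Ifit3 and Ifit3b share sequence: 23.5% and 36.9% of their 75-base stretches occur in the other gene, so reads may be split between them.

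The ISG15 pair had a median of 13.5-fold. Isg15 encodes a ubiquitin-like protein that is joined to other proteins, and Usp18 encodes the protease that removes it and also dampens signalling at the type I interferon receptor. Isg15 (ENSMUSG00000035692, chromosome 4, 156283883 to 156285303) was scarce, with 2.10, 3.32 and 6.45 CPM in CCI_KO, 3.84, 2.23, 2.17, 2.67 and 6.07 CPM in CCI_WT, 2.63, 2.15, 2.25 and 2.02 CPM in Sham_KO, and 21.3, 1.31, 2.89, 1.58 and 1.80 CPM in Sham_WT. Sham_WT 1 was far above the rest, CCI_KO 4 and CCI_WT 5 followed, and the other libraries of the 4 groups overlapped. Usp18 measured 68.9 CPM in Sham_WT 1 and 4.01 to 25.6 CPM in the other 16 libraries. Of the exon bases of Isg15, 31.1% overlap the gene Gm46878, and the library kit keeps no strand, so reads there cannot be assigned to either gene by strand.

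Among the transcription factors of the response, Irf7, which amplifies the production of type I interferon, moved far more than the ISGF3 subunits. Irf7 measured 18.6, 10.9 and 32.3 CPM in CCI_KO, 12.1, 7.22, 6.75, 15.6 and 20.7 CPM in CCI_WT, 8.81, 7.81, 13.2 and 10.9 CPM in Sham_KO, and 63.2, 6.51, 7.84, 5.29 and 6.30 CPM in Sham_WT. Sham_WT 1 was 9.82-fold above the median of the other Sham_WT libraries, which overlapped CCI_WT 2 and 3 and Sham_KO 2 at the low end. Stat2 (12.0 CPM per kb over all libraries) measured 79.8, 64.8 and 110.0 CPM in CCI_KO, 70.5, 64.8, 68.4, 71.3 and 75.6 CPM in CCI_WT, 83.7, 86.0, 75.1 and 64.2 CPM in Sham_KO, and 124, 64.4, 66.4, 62.6 and 58.5 CPM in Sham_WT. It was only 1.96-fold higher in Sham_WT 1, and that library still lay above every other. Irf9, the DNA-binding subunit, was 2.07-fold higher, at 46.6 CPM against 20.4 to 25.2 CPM in the other Sham_WT libraries.

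The oligoadenylate synthetases make the second messenger that activates RNase L against viral RNA, and the 2 Oasl proteins are relatives of these enzymes. Oasl2, the most abundant per exon length at 12.3 CPM per kb, measured 103, 83.0 and 136 CPM in CCI_KO, 83.5, 52.5, 59.2, 70.3 and 78.9 CPM in CCI_WT, 91.9, 95.1, 70.2 and 55.9 CPM in Sham_KO, and 147, 50.8, 54.0, 54.7 and 42.9 CPM in Sham_WT. Sham_WT 1 and CCI_KO 4 were again the highest, although Oasl2 was only 2.81-fold higher in Sham_WT 1 than in the median of its group. Oasl1 measured 4.96, 3.28 and 7.77 CPM in CCI_KO, 3.95, 3.93, 3.28, 4.67 and 6.27 CPM in CCI_WT, 4.40, 5.16, 3.77 and 2.48 CPM in Sham_KO, and 19.0, 3.37, 1.93, 1.597 and 1.78 CPM in Sham_WT, and 3 of the other 4 Sham_WT libraries were lower than every remaining library. Oas1a was 4.70-fold higher in Sham_WT 1. Oas2 and Oas3 were scarce, from 0.0190 to 1.23 CPM for Oas2 and from no count in Sham_KO 1 to 2.32 CPM in Sham_KO 4 for Oas3. In Sham_KO 1 a count of 0 allows up to 3 counts, which is 0.0508 CPM, and this covers counting error only.

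The 11 other antiviral effectors ran from no difference to the largest of the list. Rsad2, which encodes viperin, an enzyme that makes a chain-terminating nucleotide, measured 13.4, 11.5 and 39.1 CPM in CCI_KO, 11.5, 9.68, 9.67, 14.99 and 17.7 CPM in CCI_WT, 7.86, 14.1, 15.3 and 25.7 CPM in Sham_KO, and 87.4, 9.65, 7.17, 10.6 and 11.7 CPM in Sham_WT. Sham_WT 1 stood first and CCI_KO 4 second, with Sham_KO 4 next. Cmpk2, the neighbour of Rsad2 and a mitochondrial nucleotide kinase, was 2.66-fold higher in Sham_WT 1, at 141 CPM against 49.9 to 56.4 CPM in the rest of its group. Mx1, a dynamin-like antiviral GTPase, gave the largest ratio of the list, 67.6-fold, from 11.8 CPM in Sham_WT 1 and 0.0841 to 0.977 CPM in the other Sham_WT libraries, so low counts carry that ratio. Mx2 was 4.99-fold, the tetherin gene Bst2 5.53-fold, Ifi44 10.97-fold, Rtp4 6.54-fold, Trim30a 4.61-fold, Xaf1 2.94-fold and Ifi35 2.02-fold higher in Sham_WT 1.

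Ifi27 was the exception of the group. It had the highest level per exon length of all members, 62.3 CPM per kb, and measured 248, 293 and 283 CPM in CCI_KO, 258, 282, 290.2, 258 and 278 CPM in CCI_WT, 321, 295, 268 and 287 CPM in Sham_KO, and 288, 279, 288, 244 and 265 CPM in Sham_WT. Sham_WT 1 lay inside its own group (1.06-fold), the 4 groups overlapped, and the whole spread of 17 libraries was 244 to 321 CPM.

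**Figure D2:**
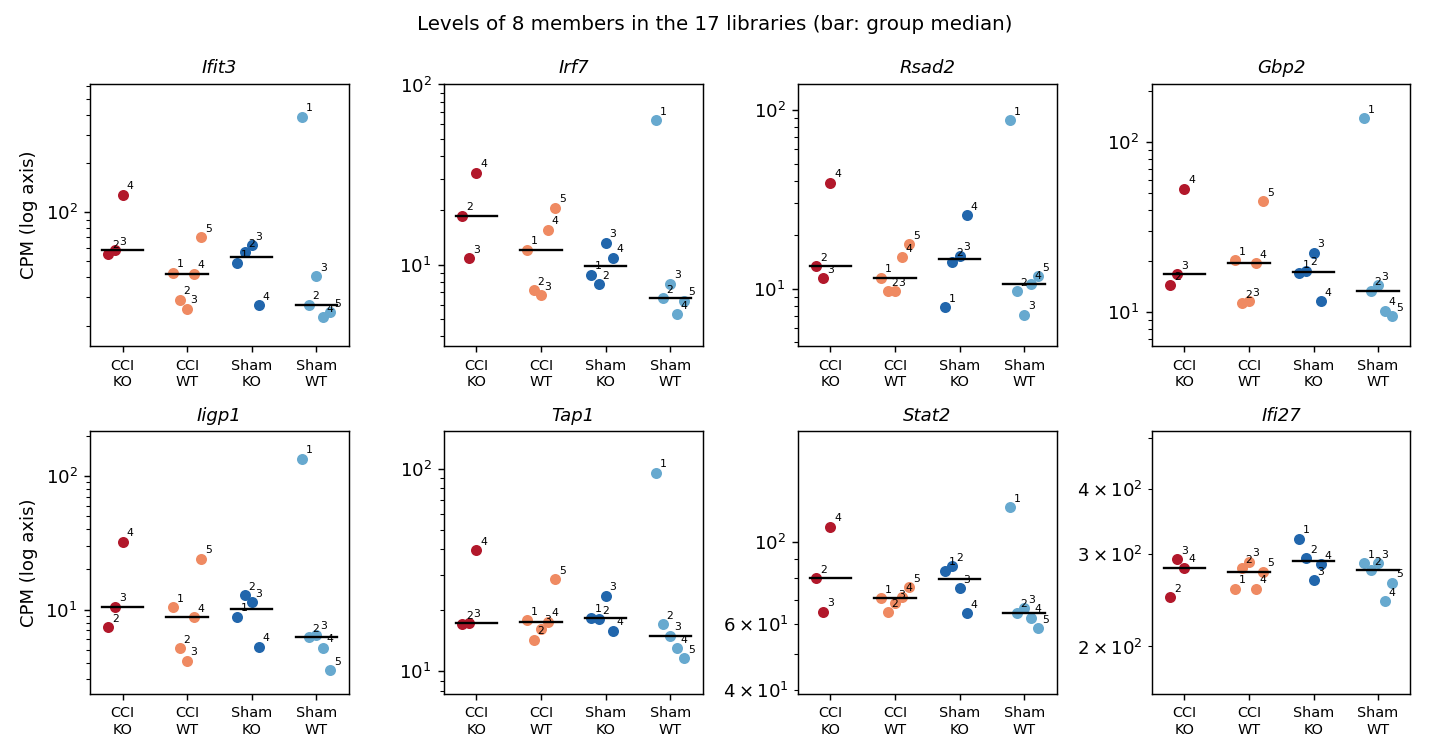
Levels of 8 members in CPM (vertical log axis, its range set per gene) in the 4 groups; each point is 1 library with its number, and the bar is the group median. Sham_WT 1 lies above every other library in 7 of the 8 panels and CCI_KO 4 comes second in them, while Ifi27 shows neither.

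The sensors of foreign nucleic acid had a median of 4.66-fold in Sham_WT 1. Zbp1, which senses Z-form nucleic acid and can start necroptosis, measured 1.61, 2.72 and 9.20 CPM in CCI_KO, 1.56, 1.41, 1.17, 2.09 and 5.11 CPM in CCI_WT, 1.19, 0.973, 3.41 and 1.72 CPM in Sham_KO, and 21.7, 1.52, 1.04, 1.27 and 1.18 CPM in Sham_WT. The order Sham_WT 1, CCI_KO 4, CCI_WT 5 held, and Sham_KO 3 came next. Ifih1 (the RNA sensor MDA5) was 4.15-fold and Dhx58 (its relative LGP2) 5.23-fold higher in Sham_WT 1. Eif2ak2, which encodes the RNA-activated kinase PKR and was the most abundant sensor per exon length (3.43 CPM per kb), differed by 1.67-fold, at 26.4 CPM in Sham_WT 1 and 13.9 to 18.8 CPM in the other Sham_WT libraries.

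The guanylate-binding proteins and immunity-related GTPases attack the membranes around intracellular microbes and answer most strongly to type II interferon. Their median was 7.52-fold in Sham_WT 1. Gbp2 measured 14.4, 16.7 and 53.4 CPM in CCI_KO, 20.2, 11.4, 11.6, 19.4 and 44.9 CPM in CCI_WT, 17.0, 17.6, 22.4 and 11.7 CPM in Sham_KO, and 138, 13.4, 14.4, 10.2 and 9.50 CPM in Sham_WT. Iigp1 measured 7.34, 10.5 and 32.4 CPM in CCI_KO, 10.4, 5.11, 4.15, 8.78 and 24.1 CPM in CCI_WT, 8.86, 12.8, 11.4 and 5.25 CPM in Sham_KO, and 136, 6.21, 6.49, 5.19 and 3.50 CPM in Sham_WT, and its 23.8-fold was the second largest ratio of the list. For both genes Sham_WT 1, CCI_KO 4 and CCI_WT 5 were the top libraries in that order. Among the other 14 libraries the 4 groups overlapped for Gbp2. For Iigp1 the other CCI_KO libraries (7.34 and 10.5 CPM) lay above the other Sham_WT libraries (3.50 to 6.49 CPM). Every other pair of groups overlapped for Iigp1. Igtp, the most abundant of the group per exon length (13.1 CPM per kb), stood at 222 CPM in Sham_WT 1, 87.8 CPM in CCI_KO 4 and 83.4 CPM in CCI_WT 5, with 28.9 to 63.6 CPM in the other 14. Irgm1 was 8.76-fold, Gbp3 7.52-fold, Gbp7 5.13-fold and Gbp5 4.21-fold higher in Sham_WT 1.

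Parp9 and Dtx3l encode partners in a complex that modifies proteins with ADP-ribose and ubiquitin, and Parp14 is a related ADP-ribosyltransferase. The 3 genes had a median of 2.76-fold in Sham_WT 1. Dtx3l, the most abundant per exon length (2.38 CPM per kb), stood at 28.1 CPM in Sham_WT 1, against 10.8 to 12.0 CPM in the other Sham_WT libraries, and Parp9 at 38.2 CPM against 4.96 to 8.26 CPM. Parp14 differed by 2.76-fold. Parp9 and Dtx3l overlap each other over 9.12% and 8.0% of their exon bases.

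The antigen processing genes had a median of 5.62-fold. Tap1, a subunit of the peptide transporter that loads MHC class I, measured 17.1, 17.4 and 39.5 CPM in CCI_KO, 17.9, 14.3, 16.3, 17.6 and 28.4 CPM in CCI_WT, 18.4, 18.1, 23.6 and 15.8 CPM in Sham_KO, and 95.3, 17.1, 15.01, 12.98 and 11.6 CPM in Sham_WT. Sham_WT 1 was above all others, CCI_KO 4 and CCI_WT 5 followed, and the rest overlapped. Psmb8, an immunoproteasome subunit and the most abundant of the 3 per exon length (5.48 CPM per kb), was 5.62-fold and Psmb9, another such subunit, 5.12-fold higher in Sham_WT 1. Psmb9 and Tap1 lie head to head and overlap each other over 19.6% and 12.4% of their exon bases.

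The promoters of the members were searched for the core of the element that ISGF3 and related factors bind, which is GAAA, any 2 bases and GAAA again, on either strand. RefSeq promoters, from 250 bases before to 50 after the start of a gene on build GRCm38.p6, were at hand for 31 of the 42 members. The motif lay in 18 of those 31 genes (58.1%), against 1079 of 27025 genes with a promoter in the table (3.99%). A longer form with a C after the last A lay in 15 of the 31 (48.4%) and in 0.944% of all genes. The list was chosen as interferon-stimulated genes, so these shares describe the list and not the 17 libraries. The promoters of 4 members with large differences between libraries are shown, 5′ to 3′ in the direction of transcription, with matches on either strand in capitals. Overlapping matches run together. The Isg15 promoter, chr4:156200769-156201068 (strand −), holds 3 overlapping matches, and the Ifit1 promoter, chr19:34640639-34640938 (strand +), holds 2. The Gbp2 promoter, chr3:142620413-142620712 (strand +), holds 1, and the Irgm1 promoter, chr11:48871371-48871670 (strand −), holds 2 that overlap.
Isg15: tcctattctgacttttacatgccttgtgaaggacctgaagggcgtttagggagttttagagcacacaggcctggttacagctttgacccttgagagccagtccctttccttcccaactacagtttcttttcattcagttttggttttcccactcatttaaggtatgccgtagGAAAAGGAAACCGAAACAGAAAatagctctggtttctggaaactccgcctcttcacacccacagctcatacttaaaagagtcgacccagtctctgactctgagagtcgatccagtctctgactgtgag
Ifit1: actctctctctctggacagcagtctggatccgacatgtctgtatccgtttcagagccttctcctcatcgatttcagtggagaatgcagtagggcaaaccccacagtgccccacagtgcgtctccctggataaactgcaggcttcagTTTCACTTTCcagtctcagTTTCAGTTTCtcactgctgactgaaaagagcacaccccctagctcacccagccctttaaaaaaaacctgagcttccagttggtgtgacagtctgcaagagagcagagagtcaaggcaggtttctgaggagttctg
Gbp2: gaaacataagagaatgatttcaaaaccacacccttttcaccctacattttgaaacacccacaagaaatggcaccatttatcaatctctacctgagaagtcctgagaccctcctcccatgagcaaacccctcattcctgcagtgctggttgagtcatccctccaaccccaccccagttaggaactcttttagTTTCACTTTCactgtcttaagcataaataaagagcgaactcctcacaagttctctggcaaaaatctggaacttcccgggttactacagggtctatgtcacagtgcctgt
Irgm1: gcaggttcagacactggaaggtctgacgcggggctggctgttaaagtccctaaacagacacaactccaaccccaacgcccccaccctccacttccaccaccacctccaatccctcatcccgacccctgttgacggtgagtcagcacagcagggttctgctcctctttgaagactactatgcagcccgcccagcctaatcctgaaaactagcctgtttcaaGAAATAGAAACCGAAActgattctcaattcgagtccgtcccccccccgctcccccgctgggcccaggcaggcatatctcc
A match is a run of letters and not a measured binding site. Members without a match included Irf7, Irf9, Ifit2, Cmpk2, Tap1 and Psmb9, which also stood higher in Sham_WT 1.

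CCI_KO 4 repeated the pattern at a smaller size. It was the highest of its group for 41 of 42 members and the second highest of all 17 libraries for 37. Against the median of the other 16 libraries 26 members were more than 2-fold higher, while 7.14% of all tested genes were. Against the other 2 CCI_KO libraries the median was 2.15-fold, from 1.05-fold for Ifi27 to 4.34-fold for Zbp1. CCI_WT 5 was the highest of its group for 32 members, with a median of 1.73-fold over the other CCI_WT libraries. Against the median of the other 16 libraries 9 members were more than 2-fold higher in CCI_WT 5, while 5.31% of all tested genes were. The counts of 41, 37 and 32 have no share of all tested genes beside them. The GTPases had the highest median of the role groups, 2.47-fold in CCI_KO 4 and 2.50-fold in CCI_WT 5, with the ISG15 pair close at 2.46-fold and 2.33-fold. Across the 42 members, the log2 difference of Sham_WT 1 from its group went with that of CCI_KO 4 (Pearson's r = 0.60, Spearman's rho = 0.65) and with that of CCI_WT 5 (r = 0.69, rho = 0.77). Across all 23972 tested genes these values were 0.04 and 0.03 for CCI_KO 4 and 0.05 and 0.05 for CCI_WT 5. Genes of a pathway are not independent replicates, and the points share their libraries, so no p is given.

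**Figure D3:**
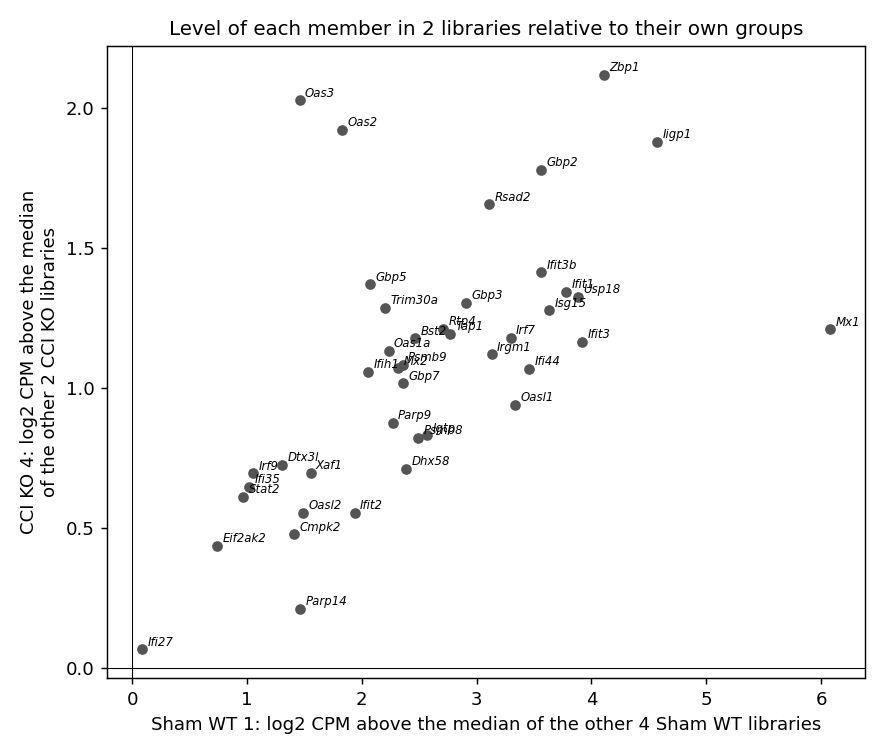
Each point is 1 of the 42 members, with its log2 CPM in Sham_WT 1 above the median of the other 4 Sham_WT libraries (horizontal) and in CCI_KO 4 above the median of the other 2 CCI_KO libraries (vertical). All 42 lie above 0 on both axes, Ifi27 nearest to the origin, Mx1 farthest right (low counts) and Zbp1 highest (r = 0.60).

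The genes upstream of the response were read from lists of the pathway. No interferon transcript was found in Sham_WT 1: the 9 interferon genes on the list, among them Ifnb1 and Ifng, had no count there, which allows up to 3 counts each or 0.0549 CPM. Over all 17 libraries Ifnb1 had no count, Ifng had 9 and Ifnk had 14. The 6 receptor subunits summed to 219.6 to 241 CPM in the 17 libraries. In each of 5 comparisons between groups (given further on with their tests), edgeR called 0 of these 6, 0 of 12 kinases and transcription factors of the pathway and 0 of 8 interferon-induced chemokines and MHC genes. Of 14 tested genes of nucleic acid sensing 1 was called, Sting1 in the sham comparison. Ifnar1 stood at 49.0 CPM in Sham_WT 1 and 43.2 to 52.7 CPM in the other Sham_WT libraries, and Ifngr1 at 48.8 CPM and 48.5 to 53.3 CPM. Ifnar2 ranged over 8.61 to 12.0 CPM and Ifngr2 over 111 to 135 CPM in all libraries. Irf3, which is activated by phosphorylation, spanned 20.3 to 28.2 CPM. Irf1, a factor that interferon itself raises, followed the members: it was 75.1 CPM in Sham_WT 1 and 19.5 to 29.5 CPM elsewhere. The chemokine gene Cxcl10, which recruits T cells, was 49.98 CPM in Sham_WT 1 and 1.54 to 10.2 CPM elsewhere. B2m, the light chain of MHC class I, was 463 CPM in Sham_WT 1, near the 466 CPM of CCI_KO 4, and 214 to 270.0 CPM in the other Sham_WT libraries.

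Markers of other cells moved with these libraries in part. The 10 macrophage markers summed to 111 CPM in Sham_WT 1 and 57.9 to 69.0 CPM in the other Sham_WT libraries, against 114 to 145 CPM in CCI_KO and 85.8 to 179.8 CPM in CCI_WT, where the members were far lower than in Sham_WT 1. The 8 T and NK cell markers summed to 2.74 CPM in Sham_WT 1 and 2.10 to 2.72 CPM in the other Sham_WT libraries. The 5 plasmacytoid dendritic cell markers, which include the member Bst2, summed to 97.2 CPM in Sham_WT 1 and 46.2 to 48.4 CPM in the other Sham_WT libraries. Bst2 made up 63.8 CPM of that sum in Sham_WT 1 and stood 5.53-fold above the median of the other Sham_WT libraries. The sum thus carries the rise of a member and does not measure these cells apart from the list. Tcf4 had 1808 counts in Sham_WT 1, of 36194 over all libraries. Siglech was 0.384 CPM in Sham_WT 1 and 0.655 to 1.52 CPM in the others. Ccr9 and Klk1 had no count in Sham_WT 1, but only 10 and 8 of the 17 libraries held any. Injury markers were low in Sham_WT 1, at a mean of 1.68 on the log2 CPM scale, within the 1.56 to 2.54 of the other Sham_WT libraries and below the 5.98 to 7.56 of the CCI libraries. Sham_KO 4, where Oas3 was highest and Rsad2 reached 25.7 CPM, held the neutrophil genes S100a8 and S100a9 at 245 and 251 CPM, against 3.90 to 71.2 and 3.85 to 74.8 CPM elsewhere. The same library stood apart for T and NK cell markers, at 10.5 CPM against 1.25 to 4.18 CPM elsewhere, and for B cell markers, at 16.9 CPM against 1.52 to 6.96 CPM. Between CCI_WT and Sham_WT, edgeR called 5 of 10 macrophage markers higher in CCI_WT (median 0.89 on the log2 scale), beside 3.06% of all tested genes in either direction. Without Sham_WT 1 it called 7 of 10 (1.16), beside 2.68%. Sham_WT 1 had the highest macrophage sum of its group, so leaving it out lowers the Sham_WT level by that choice. The 4 Schwann cell markers were lower in the libraries labelled knockout. They summed to 5685 to 6998 CPM in CCI_KO against 10305 to 14341 CPM in CCI_WT, and to 4329.8 to 6152 CPM in Sham_KO against 9572 to 13718 CPM in Sham_WT. Of these 4, edgeR called 3 lower in sham (median −0.92) and 2 lower after CCI (−0.77), and of 4 fibroblast markers 1 lower in each. What part these cells have in the members' levels was not tested. The table number differs between CCI_KO and CCI_WT and between CCI_WT and Sham_WT, so its part in the marker differences there cannot be told apart.

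The effect of injury in wild type was tested first. None of the 42 members passed an adjusted p of 0.05 (edgeR's quasi-likelihood test, Benjamini-Hochberg over all tested genes), while 3.06% of all tested genes did. An unadjusted p under 0.05 was reached by 0 of 42 members in edgeR (13.8% of all genes), 1 of 30 in DESeq2 (8.34%) and 1 of 42 in limma-voom (17.3%). DESeq2 gave no p for the other 12 members in any comparison, Ifit3, Gbp2, Iigp1 and Tap1 among them. Of the 42 fold changes 41 were negative, with a median of −0.52 on the log2 scale against −0.01 for all genes. With limma-voom, which works on log values and weights each library, 30 were negative and the median was only −0.05. Those with the smallest p in edgeR were Cmpk2 (−0.53 ± 0.26 SE, edgeR adjusted p = 0.408), Ifit3b (−1.31 ± 0.72, 0.483), Ifit3 (−1.26 ± 0.77, 0.545) and Ifit1 (−1.23 ± 0.77, 0.561). Without Sham_WT 1 the direction turned: 39 of 42 were positive and the median was 0.42. Oasl1 then passed (1.03 ± 0.28 SE, edgeR adjusted p = 0.0461), with 3.95, 3.93, 3.28, 4.67 and 6.27 CPM in CCI_WT and 3.37, 1.93, 1.597 and 1.78 CPM in Sham_WT 2 to 5. The lowest CCI_WT library was below Sham_WT 2, so even for Oasl1 the groups overlapped. This 1 of 42 stands beside 2.68% of all tested genes in that fit. Of the 8 interferon-induced chemokine and MHC genes, Cxcl10 (1.48 ± 0.35 SE, adjusted p = 0.0316) and B2m (0.51 ± 0.11, adjusted p = 0.0181) passed in it as well by edgeR. Each passed in 1 of 17 leave-outs, that of Sham_WT 1, and not with all libraries (edgeR adjusted p = 0.775 and 0.630). Sham_WT 1 was picked out because interferon-stimulated genes were high in it, and leaving it out lowers the Sham_WT mean by that choice. The p-values of that fit, with that of Oasl1, are therefore a description.

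Injury in the libraries labelled knockout gave 0 calls among the members in edgeR, beside 0.0834% of all tested genes, and 0 members had an unadjusted p under 0.05 in edgeR (8.63% of all genes), 0 of 30 in DESeq2 (5.54%) and 1 in limma-voom (11.8%). The fold changes were positive for 39 of 42 (median 0.39). Those with the smallest p were Oas2 (1.66 ± 0.84 SE, edgeR adjusted p = 0.600), Ifi44 (1.56 ± 0.93, 0.708), Parp14 (0.47 ± 0.30, 0.725) and Gbp3 (1.01 ± 0.72, 0.788). Ifi44 measured 6.13, 1.81 and 7.04 CPM in CCI_KO and 1.44, 1.80, 2.44 and 1.11 CPM in Sham_KO, so CCI_KO 2 and 4 were high and CCI_KO 3 lay within the Sham_KO range. Gbp3 measured 22.8, 25.6 and 59.7 CPM in CCI_KO and 16.7, 16, 22.8 and 16.4 CPM in Sham_KO, so CCI_KO 2 and Sham_KO 3 were level and only CCI_KO 4 was far above. Without CCI_KO 4 the median was −0.07, with 17 positive and 25 negative. Without Sham_WT 1, which enters the shared spread, 0 members passed beside 0.0210% of all genes.

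Genotype in sham likewise gave 0 calls among the members in edgeR, beside 1.0% of all tested genes, and 0 members had an unadjusted p under 0.05 in edgeR (11.4% of all genes), 1 of 30 in DESeq2 (7.32%) and 0 in limma-voom (13.2%). With all libraries 36 of 42 fold changes were negative (median −0.48), whereas limma-voom gave 26 negative and a median of −0.05. Those with the smallest p were Oas2 (−1.45 ± 0.77 SE, edgeR adjusted p = 0.508), Parp14 (−0.48 ± 0.26, 0.542), Isg15 (−1.35 ± 0.79, 0.589) and Ifi27 (0.10 ± 0.06, 0.606). Without Sham_WT 1, 40 of 42 were positive (median 0.49), 13 had an unadjusted p under 0.05 (11.3% of all genes did) and 0 passed the adjusted threshold, beside 0.606% of all genes. On the mean level of the members, Sham_KO at 3.24, 3.52, 3.47 and 3.26 then lay above each of Sham_WT 2 to 5 (3., 3.06, 2.89 and 2.74). Outside the members the DNA-sensing adaptor Sting1, which leads to type I interferon, rose in Sham_KO (2.2 ± 0.46 SE, edgeR adjusted p = 0.0422), with 40.0, 41.7, 5.56 and 9.87 CPM in Sham_KO 1 to 4 against 4.61 to 5.72 CPM in Sham_WT. The high libraries were Sham_KO 1 and 2, which also carry the injury markers. What part those markers have in it was not tested. With all libraries it also passed in DESeq2 (adjusted p = 0.000161) and limma-voom (0.0314). In edgeR it passed with DESeq2's size factors (0.0421), no filter (0.0315) and the stricter filter (0.0284), but not with a replicate block (0.164). The call did not hold when Sham_WT 1 was left out (edgeR adjusted p = 0.0848). Leaving out each library in turn ended it in 15 of 17 cases, every one but Sham_KO 3 and 4 (0.00173 to 0.146), with fold changes of 1.81 to 2.53. Without Sham_KO 1 and 2 together the fold change was 0.55 (edgeR adjusted p = 0.473). Without Sham_WT 1 the MHC class I gene H2-D1 rose in Sham_KO (0.39 ± 0.08 SE, edgeR adjusted p = 0.0261). H2-D1 passed in 1 of 17 leave-outs, this one, and not with all libraries (edgeR adjusted p = 0.348). The library left out was picked for its high member levels, so this call and the 13 members above are a description too.

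Genotype after CCI gave 0 calls among the members in edgeR, beside 0.684% of all tested genes, and 0 members had an unadjusted p under 0.05 in edgeR (8.78% of all genes), 0 of 30 in DESeq2 (5.36%) and 4 in limma-voom (13.6%). All 42 fold changes were positive (median 0.38). Those with the smallest p were Eif2ak2 (0.31 ± 0.17 SE, edgeR adjusted p = 0.648), Oasl2 (0.64 ± 0.36, 0.694), Ifit1 (1.197 ± 0.86, 0.802) and Ifit3b (1.11 ± 0.81, 0.805). For Oasl2 the 3 CCI_KO libraries (103, 83.0 and 136 CPM) reached from just below to above the highest CCI_WT library (83.5 CPM). Without CCI_KO 4 the median was 0.02, with 22 positive and 20 negative. Without Sham_WT 1 the median stayed at 0.38 and 12 members had an unadjusted p under 0.05 (8.96% of all genes did), but 0 passed the adjusted threshold, beside 0.665% of all genes. The RNA sensor Rigi, which is not a member, rose in CCI_KO in that fit (0.61 ± 0.14 SE, edgeR adjusted p = 0.0351). With all libraries the fold change of Rigi was also 0.61, with a larger SE (0.34, edgeR adjusted p = 0.689). Without CCI_KO 4 it was 0.31 (edgeR adjusted p = 0.951), and the call came in 1 of 17 leave-outs. Sham_WT 1 is in neither group of this comparison, so leaving it out acts mainly through the shared spread. That library was picked for its high member levels, so the 12 members and the Rigi call are a description.

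The difference between the injury effects of the genotypes, the interaction, gave 0 calls among the members and 0% of all tested genes in edgeR. DESeq2 called 28 genes. In edgeR 1408 genes had an unadjusted p under 0.05. Among the members such a p was reached by 0 in edgeR (5.87% of all genes), 0 of 30 in DESeq2 (4%) and 1 in limma-voom (8.86%). Of the fold changes 41 of 42 were positive (median 0.81), led by Ifit3b (2.01 ± 1.11 SE, edgeR adjusted p = 0.896), Ifi44 (2.18 ± 1.21, 0.896), Zbp1 (2.54 ± 1.43, 0.896) and Ifit3 (1.99 ± 1.19, 0.903). Without Sham_WT 1 there were 19 positive and 23 negative, the median was −0.03, and again 0% of all genes passed. The comparisons share their control libraries, so Sham_WT 1 enters injury in wild type, genotype in sham and the interaction at once.

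**Figure D4:**
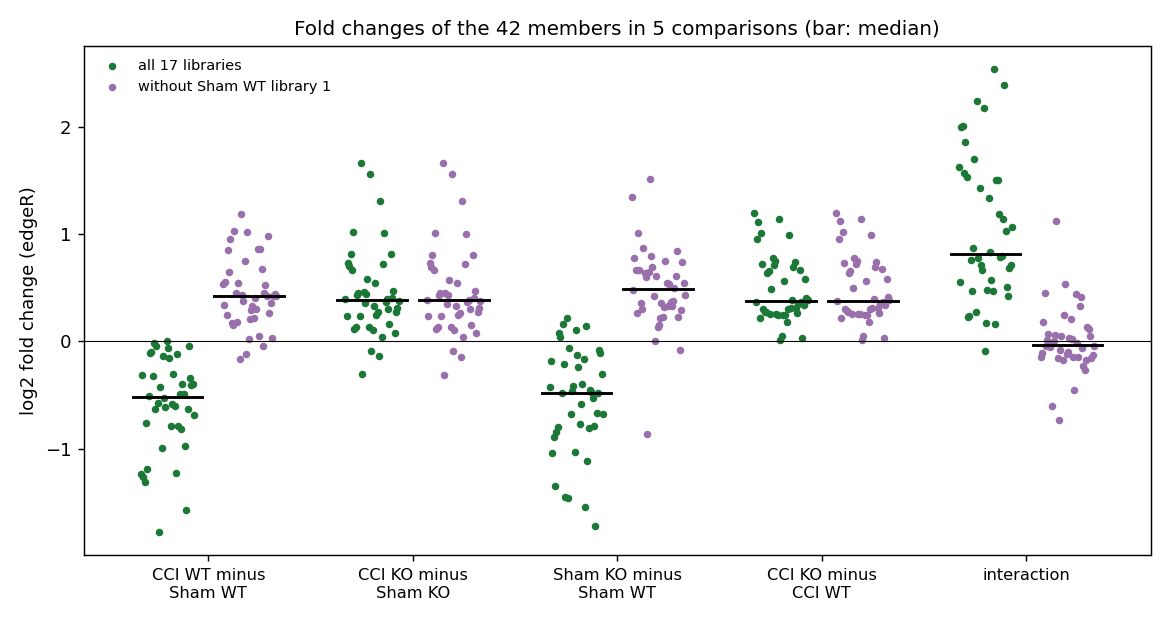
Each point is the edgeR log2 fold change of 1 of the 42 members in each of the 5 comparisons, with all 17 libraries (green) and without Sham_WT 1 (purple); bars are medians. The median for injury in wild type is −0.52 with all libraries and 0.42 without Sham_WT 1, and that for genotype in sham −0.48 and 0.49.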

How the data were processed

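Bulk RNA was measured in 17 mouse dorsal root ganglion libraries. Per the labels' protocols, extraction used a PicoPure kit and cDNA synthesis the SMART-Seq v4 chemistry, which keeps no strand. The authors ran bcl2fastq 2.20.0.422 and STAR 2.7.11a on build GRCm39, per the submitters' processing notes. What the authors deposited is 1 table of raw counts per library, by Ensembl gene and in the layout of HTSeq. The version of the counter is not given in the sources used here, nor is its annotation. Summary lines (4.03 to 4.55% outside genes, 7.63 to 8.17% ambiguous) stayed out of totals and tests. Symbols and positions came from GENCODE M39 on GRCm39, promoter sequences from RefSeq on GRCm38.p6, and no position was carried between builds.

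Of 46200 genes with a count, 23972 passed edgeR's filterByExpr (minimum count 10, minimum total 15). Libraries were scaled by TMM (factors 0.983 to 1.03). edgeR 4.0.16 (R 4.3.3) fitted 4 group means over 17 libraries with 13 residual degrees of freedom, and tested 5 contrasts with its quasi-likelihood test, Benjamini-Hochberg adjusted over all tested genes at 0.05; the fit was tested on simulated data. Log2 CPM used a prior count of 2. Alternatives were DESeq2 1.42.0 (its size factors, and its own test), limma 3.58.1 (voom with quality weights), no filter, a filter of 1 CPM in 5 libraries, a replicate block, each library left out, and Sham_KO 1 and 2 left out. Sham_WT 1 and CCI_KO 4 left out together was added after seeing the data. Named members are those called, otherwise the 4 with the smallest p per comparison, the most abundant per exon length of each role and those with a library far from its group. Members and lists were chosen with earlier results of these data known. Sums of 3 counts stand for what a count of 0 allows. A gene of the pathway list is not reported here.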

Additional observations from a re-analysis of the deposited data

Results flagged for a closer look

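A library was far from its group where the gap between it and its nearest neighbour, as a share of the group's whole range on the log2 CPM scale, passed Dixon's 95% critical value for its number of libraries. About 1 in 20 groups passes by chance, and the 3 libraries of CCI_KO are too few for this measure. Sham_WT 1 was far above its group for the mean level of the 42 members (0.881) and for 28 single members. In the IFIT proteins the share was 0.913 for Ifit1, 0.736 for Ifit2, 0.794 for Ifit3 and 0.783 for Ifit3b. In the ISG15 pair the share was 0.718 for Isg15 and 0.837 for Usp18. In the transcription factors the share was 0.842 for Irf7, 0.746 for Irf9 and 0.832 for Stat2. In the oligoadenylate synthetase family the share was 0.803 for Oasl2 and 0.809 for Oas1a. In the other effectors the share was 0.825 for Mx2, 0.804 for Rsad2, 0.882 for Cmpk2, 0.890 for Ifi35, 0.808 for Rtp4 and 0.787 for Trim30a. In the sensors the share was 0.878 for Zbp1. In the GTPases the share was 0.845 for Gbp2, 0.889 for Gbp3, 0.837 for Igtp, 0.802 for Irgm1 and 0.832 for Iigp1. In the Parp9 complex the share was 0.750 for Parp9 and 0.887 for Dtx3l. In antigen processing the share was 0.718 for Psmb8, 0.815 for Psmb9 and 0.817 for Tap1. In Sham_KO, library 3 was far above the others for Irf9 (0.981), Bst2 (0.919) and Gbp3 (0.878) and far below them for Oas2 (0.841, where that library held 0.0190 CPM). In CCI_WT, library 5 was far above the others for Oas1a (0.739). The share of all tested genes with such a library was 7.23% in Sham_WT, 6.49% in Sham_KO and 6.52% in CCI_WT. What sets these libraries apart was not tested.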

How the results depend on the processing

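Among the members tested (40 under the stricter filter, 30 with a p in DESeq2, 42 otherwise), 0 passed in each comparison and alternative, except that injury in wild type gave 1 (Oasl1) without Sham_WT 1 and 1 with Sham_WT 1 and CCI_KO 4 both left out; with each library left out its count ran from 0 to 1. The medians of the 42 log2 fold changes kept their sign in 117 of 125 alternatives. With each library left out the median ran from −0.71 to 0.42 for injury in wild type, from −0.069 to 0.58 for injury in the knockout-labelled libraries, from −0.68 to 0.49 for genotype in sham and from −0.032 to 1.03 for the interaction; Sham_WT 1 turned the sign in the first, the third and the last of these and CCI_KO 4 in the second. With both left out, a choice made after seeing the data, the medians were 0.42, −0.069, 0.49 and −0.45 in that order. Single members followed. For injury in wild type, leaving out each library gave −1.60 to 0.24 for Ifit3b, −1.54 to 0.55 for Ifit3 and −1.48 to 0.54 for Ifit1, with 0.24, 0.55 and 0.54 without both. For genotype in sham Isg15 ran from −1.61 to 0.26, with 0.26 without both, and for the interaction Ifit3b was −0.19, Zbp1 −0.62 and Ifit3 −0.33 without both. Fewer libraries entered these fits; no other cause was tested. Counts over all genes moved more. They were 733, 20, 240, 164 and 0 in the order of the report, against 1301, 224, 702, 452 and 77 with no filter and 1158, 136, 658, 398 and 28 with DESeq2. With limma-voom 1196 passed for injury in wild type, 379 for genotype in sham and 440 for genotype after CCI, and with DESeq2's size factors 11 for injury in the knockout-labelled libraries. Leaving out each library gave 423 to 998, 0 to 43, 88 to 665, 18 to 229 and 0 to 7. Without Sham_KO 1 and 2 there were 147 for injury in the knockout-labelled libraries and 37 for genotype in sham. Without Sham_WT 1 and CCI_KO 4 there were 4 for injury in the knockout-labelled libraries, 123 and 38 for genotype in sham and after CCI, and 1 for the interaction. The labels do not say whether library numbers pair the groups. Over 22 same-number pairs the correlation of deviations ran from −0.01 to 0.12, and 6 libraries correlated best with their own number. No range for pairs of unlike number was set beside it, so this does not decide the question. The limma-voom medians were −0.05, 0.41, −0.05, 0.38 and 0.55 in the order of the report. With the number as a replicate block, 0 members passed, the medians were −0.20, 0.53, −0.07, 0.67 and 0.70 in the order of the report, and 775, 46, 139, 91 and 0 genes passed. The looser motif, without the last A, lay in 61.3% of the members with a promoter and 9.76% of all genes with one. At 52.5 to 73.6 M counts a library depth limits mainly Oas2, Oas3 and Mx1, with few counts in many libraries.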

Other observations

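Genes outside the list also set Sham_WT 1 apart. Ranked by log2 CPM above the median of the other 4 Sham_WT libraries, among protein-coding genes of at least 5 CPM in that library, 4 of the first 10, 10 of the first 20 and 24 of the first 50 were members. The ranking uses the values that picked the library and is a description. The others near the top were mostly further guanylate-binding proteins and immunity-related GTPases (Gbp10, Gbp6, Iigp1c, Ifi47, Tgtp2 and Tgtp1), the receptor subunit gene Il12rb1, Cxcl10, and the DNA-sensing family genes Ifi211 and Ifi204. Hoxd10, a positional homeobox gene with no known place in the interferon response, ranked 3.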
